A study of Eragrostis tef with 16 samples.

Results

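Roots were set against shoots of tef plants that had grown at low calcium, with 4 root libraries (LCR) and 4 shoot libraries (LCS). These are 8 of the 16 RNA-seq libraries of the series, and 56746 of the 68255 genes in its table could be tested. The question was how far the tissues differ in calcium-starved plants, and which genes tell them apart under this supply. Tef (Eragrostis tef) is an allotetraploid cereal with the subgenomes A and B, and the plants were kept in a modified Hoagland's hydroponic solution for about a month. LCR and LCS received 0.01 mM Ca, and the control roots (ConR) and control shoots (ConS) received 1 mM Ca. The sources used here do not state whether a library holds 1 plant or several, or whether the root and the shoot of the same plant were both sequenced. The p-values rest on the spread between libraries. For single genes this spread was 1 estimate per gene shared by all groups, control libraries included, and not that of LCR or LCS alone. Each library carries an S number, and single values are listed by it, with S1 to S4 being roots and S5 to S8 being shoots of the low supply, while S9 to S12 (ConR) and S13 to S16 (ConS) had the control supply.

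Calcium enters a plant through the roots and moves to the shoot in the xylem with the transpiration stream. It is hardly moved out of old leaves again, so that young tissues depend on a steady supply. Inside cells it is kept low in the cytosol by ATPases and exchangers that pump it out or into stores, while channels such as the cyclic nucleotide-gated channels (CNGC) and the glutamate receptor-like channels (GLR) let it in. Short rises of cytosolic calcium are read by calcium-binding proteins and by calcium-dependent protein kinases (CDPK). Roots also carry the machinery that takes up iron and other metals, and this machinery is placed by tissue in most plants studied.

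The total count ran from 6276818 to 10166944 in LCR and from 9959542 to 11720368 in LCS, and these totals overlapped. The control libraries were deeper, with 11587068 to 17659238 in ConR and 14640539 to 15590039 in ConS. A principal component analysis of the 8 libraries gave a first component with 81.0% and a second one with 5.9% of the variance. LCR scored -221 to -207 on the first component, and LCS scored 174 to 243, with S8 the LCS library nearest to the roots. Libraries of one group differed from each other by more than sampling noise in every pair. The spread between libraries was wider in shoots, with a biological coefficient of variation of 34.3% in LCS and 17.4% in LCR. The labels name no batch, so that no value within a batch can be given. The study mentions independent experiments, and the labels do not assign the libraries to them. The tissue labels could not be checked against marker genes, since most identifiers carry no gene name in the sources used here. The samples are whole organs, so that fewer cells of a type and less RNA per cell cannot be told apart.

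At low calcium, roots and shoots differed in 24218 of the 56746 genes tested, which is 42.7% (edgeR quasi-likelihood test, Benjamini-Hochberg false discovery rate below 0.05). Of these genes, 11355 were higher in LCR (20.0% of the genes tested) and 12863 were lower in LCR (22.7%). The 4 LCR libraries did not overlap with the 4 LCS libraries in 23134 genes (40.8%), and 21156 of the genes called were among them (87.4%). The median log2 fold change, LCR over LCS, was -0.03 over all genes tested. Upper-quartile scaling in place of TMM moved the median of all genes by 0.17, to 0.14, and 56.0% of its calls were higher in LCR, against 46.9% with TMM. With the filterByExpr filter of edgeR on low counts, 11408 genes were higher and 11210 lower in LCR. Which direction held more genes thus depended on the scaling and the filter. Leaving out 1 library gave 21677 (without LCR S2) to 24478 calls (without LCS S8).

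The differences of genes lower in LCR were the larger ones. Their median absolute log2 fold change was 2.37, and that of the genes higher in LCR was 1.84. At least 4-fold differences were found for 5274 genes higher in LCR and for 7305 genes lower in LCR. At 64-fold or more there were 730 genes higher in LCR and 1301 lower in LCR. Control plants, whose libraries held more reads on average, had 9319 genes at least 4-fold higher in ConR and 7048 at least 4-fold lower in ConR. Genes with more reads were called more often, from 21.7% of the genes under 1 CPM to 64.6% of the genes above 100 CPM. CPM is the read count relative to the TMM-scaled library total, except where the plain library total is named.

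**Figure D1:**
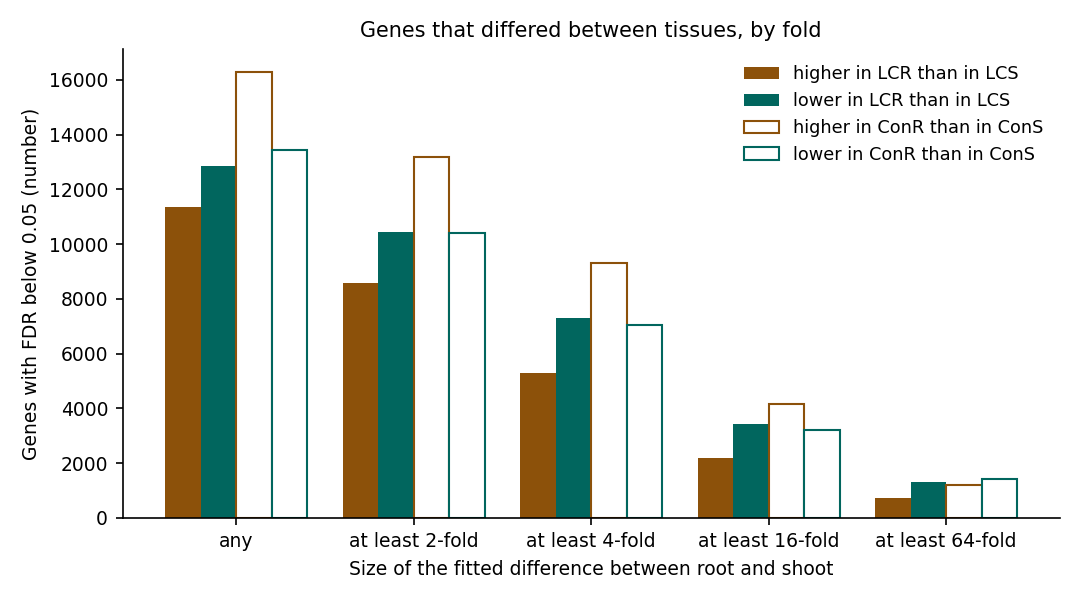
Number of genes that passed a false discovery rate of 0.05 between root and shoot (vertical axis), by the size of the fitted fold change (horizontal axis), at low calcium (filled bars) and in control plants (open bars). At low calcium, with TMM and the main filter, the genes lower in LCR outnumber those higher in LCR at every step. They number 12863 against 11355 of any size and 1301 against 730 at 64-fold or more.

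The most abundant transcripts set the tissues apart in an unequal way. Of the 100 genes with the highest mean CPM in LCS, 89 were lower in LCR, 2 were higher in LCR and 9 were not called, and their median log2 fold change was -7.44. Of the 100 genes with the highest mean CPM in LCR, 66 were higher in LCR, 2 were lower in LCR and 32 were not called, and their median log2 fold change was 1.26. The sets shared 13 genes. Each set was chosen by abundance in its own tissue, which by itself favours genes higher in that tissue. As a description, the most abundant shoot transcripts were mostly scarce in roots, while the most abundant root transcripts differed less. The 100 most abundant genes of each library took 13.4%, 12.9%, 11.3% and 12.1% of the counts in LCR S1 to S4, against 21.3%, 19.6%, 23.7% and 16% in LCS S5 to S8. The groups did not overlap, with a two-sided exact permutation p = 0.0286, the smallest that 4 libraries against 4 allow, and p = 0.0857 after adjustment over the 3 measures of whole libraries. The number of genes at 1 CPM or more was 37317 to 37991 in LCR and 34478 to 38438 in LCS, and these ranges overlapped (two-sided exact permutation p = 0.143, adjusted p = 0.143). CPM in this count is relative to the plain library total.

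Among the genes without a name, those with the largest differences that were still counted in both tissues show what a tissue-specific transcript looked like under this supply. The identifier Et_4A_034104 had 1412, 1334, 1217 and 1423 CPM in the LCR libraries, against 5.84, 6.96, 7.37 and 6.23 CPM in the LCS libraries. Its log2 fold change was 7.67 ± 0.24 (SE, adjusted p = 4.30e-13), and in control plants it was 7.5. The genes of this paragraph were picked for the size of the difference and for libraries without overlap, so that their separation is part of the choice. Et_1B_009971 followed with a log2 fold change of 7.52 ± 0.38. On the shoot side, Et_2A_017167 had 2.69, 2.19, 1.87 and 1.79 CPM in the LCR libraries, against 778, 889.8, 804 and 372 CPM in the LCS libraries. The value in S8 was below that in the other LCS libraries. The log2 fold change was -8.39 ± 0.41 (SE, adjusted p = 1.06e-11). Et_4A_035748 followed with -8.22 ± 0.28.

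Transcripts counted in one tissue and at 0 in the other were few and of low abundance. CPM values of these genes are relative to the plain library total. At least 1 CPM in all 4 LCR libraries and no read in any LCS library was found for 80 genes, whose median in LCR was 2.7 CPM and whose highest mean was 11.1 CPM, at least 160-fold higher than the level that 3 reads over the 4 LCS libraries would give. The reverse held for 46 genes, with a median of 3.96 CPM and a highest mean of 31.2 CPM in LCS, at least 365-fold higher in LCS than 3 reads over the 4 LCR libraries would give. Of the 80 genes, 26 were also at 0 in ConS, and none had more than 8 reads over the 4 ConS libraries. Of the 46 genes, 6 were also at 0 in ConR, and none had more than 7 reads over the 4 ConR libraries. The control libraries were deeper, so that a count of 0 was harder to reach there. None of the genes that the study names was among the 80 or the 46. Without LCS S8 the 80 genes became 149, and without LCR S3 the 46 genes became 90. A count of 0 reflects the depth of these libraries and does not show that a transcript was absent.

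The share of genes called was similar across the chromosomes. The chromosome code in the identifiers placed 28213 of the genes tested on subgenome A and 27515 on subgenome B, and 42.8% and 43.0% of them were called. By chromosome, the share called ran from 40.8% on 5A to 45.7% on 6A. Chromosome 6A had 25.4% of its genes higher in LCR, and 4B had 16.9%, while genes on unplaced sequence were called in 29.1%.

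The control plants gave a set of tissue genes that were called without any low calcium library. Only the filter on low counts before that fit used all 16 libraries. A fit of the 8 control libraries alone called 15224 genes higher in ConR than in ConS, here called root-type genes, and 13050 genes lower in ConR, here called shoot-type genes. The root-type genes took 51.8%, 51.4%, 47.1% and 49.7% of the counts in the LCR libraries, against 15%, 16.5%, 11.9% and 22.5% in the LCS libraries. The shoot-type genes took 14.8%, 14.8%, 16.4% and 15.6% in LCR, against 59.2%, 56.1%, 64.2% and 46.3% in LCS. The tissues were thus well apart at low calcium on genes called without the low calcium libraries. In the control libraries, whose own values chose the genes, the root-type genes took 45.8% to 49.6% in ConR and 7.55% to 11.2% in ConS, and the shoot-type genes took 15.4% to 16.9% in ConR and 62.2% to 71.2% in ConS. The library S8 had the highest share of root-type genes and the lowest share of shoot-type genes in LCS, and its TMM factor was 1.05, against 0.822 to 0.908 in the other LCS libraries and 1.13 to 1.26 in LCR.

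**Figure D2:**
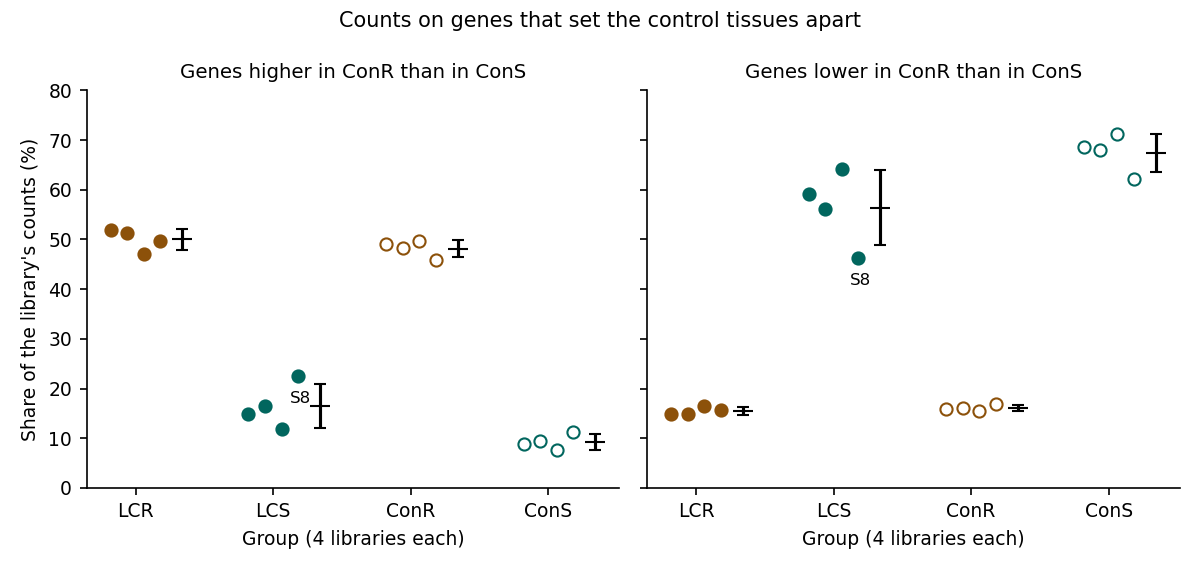
Share of each library's counts (vertical axis, %) that fell on genes higher in ConR than in ConS (left) and lower in ConR than in ConS (right), for LCR, LCS, ConR and ConS (points are libraries, and the bar is the mean with the SD of 4 libraries). These genes were called in the control libraries alone, after a filter on low counts over all 16 libraries. LCR lies apart from LCS in both panels, and S8 is the LCS library nearest to the roots at 22.5% and 46.3%.

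The genes that the study names by identifier are grouped below by what they transport or do. The study chose them on these samples, so that their counts are a description. All of them were counted and tested, and 35 were higher in LCR, 37 were lower in LCR and 37 were not called. This is 66.1% of the named genes, against 42.7% of all genes tested and 52.8% of the 41296 genes at 1 CPM or more in LCR or LCS. The libraries did not overlap in 67 of the named genes, against 40.8% of all genes. At least 4-fold differences were found for 15 genes higher in LCR and for 7 lower in LCR, against 5274 and 7305 of all 56746 genes tested. Under upper-quartile scaling 44 were higher in LCR and 31 lower. Names follow the study and rest on similarity to genes of other plants, so that a role given for Arabidopsis or rice was not tested in tef. Reads that could be split between near-identical copies on the A and B subgenomes were not followed, and the levels of such copies are uncertain to that extent.

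**Figure D3:**
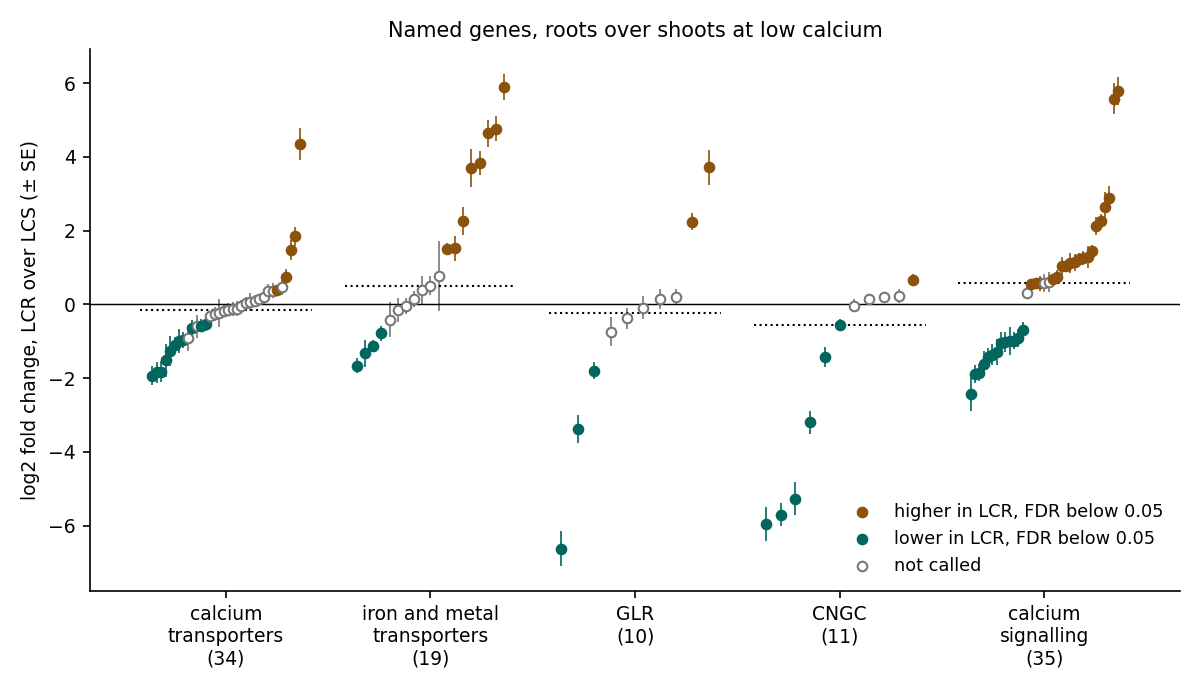
Log2 fold change of LCR over LCS (vertical axis, with SE) for the named genes, sorted within 5 lists. Filled points passed a false discovery rate of 0.05, and dotted lines are list medians. The GLR and CNGC lists reach furthest down, to -6.62 and -5.96, and the iron and metal transporters and the signalling genes reach furthest up, to 5.9 and 5.79.

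Calcium transporters had the smallest median absolute log2 fold change of the 5 lists, 0.50. Of 34 genes, 5 were higher in LCR, 11 were lower in LCR and 18 were not called, which is 47.1% called, near the 42.7% of all genes tested and under the 52.8% of the genes at 1 CPM or more. Their median log2 fold change was -0.15, against -0.03 over all genes, and the libraries did not overlap in 14 of them, against 40.8% of all genes. The list holds uniporters, which pass calcium into mitochondria, ATPases, which pump it out of the cytosol at the cost of ATP, and exchangers, which trade it for other cations. The number higher in LCR was 3 without LCR S2 or without LCS S5, and 9 under upper-quartile scaling.

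Uniporter transcripts went both ways, with 2 of 7 higher in LCR and 3 lower in LCR. This is 71.4% called, against 42.7% of all genes tested. CaUP4 on 4A (Et_4A_035795) had 21.4, 13.9, 12.3 and 19.8 CPM in the LCR libraries, against 0.383, 0.348, 1.87 and 0.671 CPM in the LCS libraries. This was the only calcium transporter past 4-fold, with a log2 fold change of 4.34 ± 0.43 (SE, adjusted p = 1.28e-07). The gene of the same name on 7B (Et_7B_055244) went the other way, with a log2 fold change of -1.1 ± 0.21 (adjusted p = 0.000253). CaUP2 (Et_1A_007032) had 98.6, 83, 61.2 and 71.9 CPM in the LCR libraries, against 30.4, 34.1, 19.9 and 28.8 CPM in the LCS libraries, a log2 fold change of 1.47 ± 0.27. Every root library was above every shoot library. CaUP3 (Et_1A_008615) was lower in LCR, with 3.12 to 5.78 CPM in LCR and 8.82 to 21.9 CPM in LCS. On the log2 scale the fold change was -1.82 ± 0.28 (adjusted p = 2.36e-05). CaUP6 (Et_3B_029644) had 3.11, 3.59, 3.98 and 3.3 CPM in the LCR libraries, against 6.13, 16.5, 6.85 and 4.51 CPM in the LCS libraries. Its log2 fold change of -1.26 ± 0.42 (adjusted p = 0.0203) leaned on S6, and without that library it was -0.73 with an adjusted p of 0.139. With limma-voom it was -1.04 with an adjusted p of 0.0836. The 2 remaining uniporters, CaUP6-1 and CaUP6-2, were not called.

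Of the 14 calcium-transporting ATPases, 3 were higher in LCR, 2 were lower in LCR and 9 were not called. The share called was 35.7%, below the 42.7% of all genes tested. CaTA5 (Et_1A_007426) had 63, 62.2, 82.9 and 77.3 CPM in the LCR libraries, against 30.5, 15, 13.6 and 20.1 CPM in the LCS libraries. The groups did not overlap, and the log2 fold change was 1.85 ± 0.25 (SE, adjusted p = 7.29e-06). CaTA3 on 7B (Et_7B_054771) went the other way, with 4.99 to 6.86 CPM in LCR and 14.6 to 28.6 CPM in LCS. This gave a log2 fold change of -1.85 ± 0.27 (adjusted p = 1.85e-05). The gene of the same name on 4A (Et_4A_033710) had a log2 fold change of 0.03 (adjusted p = 0.906), so that it did not tell the tissues apart. CaTA4-1 and CaTA5-2 were higher in LCR by 0.74 and 0.38 on the log2 scale, and CaTA3-1 was lower in LCR with a log2 fold change of -0.96.

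Of the 5 cation/calcium exchangers, 3 were lower in LCR and 2 were not called, which is 60% called, against 42.7% of all genes tested. CaE1-2 (Et_4A_035362) had 3.68, 4.47, 2.42 and 3.77 CPM in the LCR libraries, against 12.9, 19.4, 11 and 11.6 CPM in the LCS libraries. This was the largest fall of the list, with a log2 fold change of -1.94 ± 0.26 (SE, adjusted p = 5.13e-06). CaE1 (Et_10A_001931) had 7.78, 9.64, 6.24 and 6.59 CPM in the LCR libraries, against 9.58, 37.3, 18.9 and 20.9 CPM in the LCS libraries. Here the libraries overlapped, since S5 (9.58 CPM) lay just under S2 (9.64 CPM), and the log2 fold change of -1.52 ± 0.44 (adjusted p = 0.0093) was -1.12 with an adjusted p of 0.0504 without S6. CaE1-3, the sodium/calcium exchanger NaCaE1, the mitochondrial exchanger CaME1 and the mitochondrial carrier CaMC-3 were also lower in LCR, with log2 fold changes of -0.99, -0.63, -0.54 and -0.57. The calcium channels CaC1 and TPCaC1 had adjusted p-values of 0.689 and 0.0504 and were not called. CaCC1 (Et_3B_028475), the calcium transporter with the most reads among those not called, had 81.3, 97.2, 119.6 and 116 CPM in the LCR libraries, against 97.7, 61.1, 93.9 and 70.2 CPM in the LCS libraries, a log2 fold change of 0.36 ± 0.18 (adjusted p = 0.124, 0.0262 under upper-quartile scaling and 0.0466 with DESeq2).

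Iron and metal transporters included several transcripts that were far higher in roots. Of 19 genes, 8 were higher in LCR, 4 were lower in LCR and 7 were not called, which is 63.2% called, against 42.7% of all genes tested and 52.8% of those at 1 CPM or more. Their median log2 fold change was 0.50, against -0.03 over all genes, and the libraries did not overlap in 11 of them, against 40.8% of all genes. All 6 members that differed by more than 4-fold were higher in LCR, whereas over all genes 5274 were higher and 7305 lower at that size. These families move iron or manganese across membranes, as free ions in the case of Nramp and of the vacuolar iron transporters (VIT), and mostly bound to a chelator such as nicotianamine in the case of the yellow stripe-like transporters (YSL).

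YSL16 (Et_3B_031448) had 66.5, 65, 26.1 and 39.9 CPM in the LCR libraries, against 0.862, 0.927, 0.623 and 0.863 CPM in the LCS libraries. No other named gene had a larger rise, with a log2 fold change of 5.9 ± 0.36 (SE, adjusted p = 1.36e-10). In reads, YSL16 had 9, 8, 6 and 9 in the LCS libraries, so that its level in shoots rests on few reads. In rice, YSL16 moves metals bound to nicotianamine. YSL2 (Et_1A_008454) had 148, 117, 29.5 and 47.2 CPM in the LCR libraries, against 17.1, 20.9, 15.8 and 17.3 CPM in the LCS libraries. The spread among roots was wide, yet the groups did not overlap, and the log2 fold change was 2.26 ± 0.39 (adjusted p = 9.17e-05). YSL9 was also higher in LCR, with a log2 fold change of 1.52, whereas YSL14 and YSL6 were lower in LCR with -1.12 and -0.78. YSL12 and YSL13 were not called.

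Both vacuolar iron transporters were root transcripts, while 20.0% of all genes tested were higher in LCR. In Arabidopsis, VIT1 loads iron into the vacuole. VIT5 (Et_7B_055732) had 294, 220.5, 97 and 159 CPM in the LCR libraries, against 6.42, 6.61, 7.58 and 7.67 CPM in the LCS libraries. Its log2 fold change was 4.76 ± 0.34 (SE, adjusted p = 1.33e-09). VIT1 (Et_2B_020454) had 228, 233, 108.7 and 171 CPM in the LCR libraries, against 10.1, 19.2, 13.9 and 9.01 CPM in the LCS libraries, a log2 fold change of 3.83 ± 0.33. The order of the 4 roots was nearly the same for YSL2, YSL16, VIT1 and VIT5, with S1 and S2 high, S4 between and S3 low. It was not particular to genes higher in LCR. YSL9 shared it, as did Nramp2, which was lower in LCR, and OPT3, which was not called. YSL6, YSL12 and YSL13 did not show it.

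Among the 6 Nramp genes, 2 were higher in LCR and 2 were lower in LCR. This is 66.7% called, against 42.7% of all genes tested. Nramp5, which takes up manganese and cadmium in rice roots, had 79.6, 82.6, 115 and 107 CPM in the LCR libraries, against 5.94, 3.48, 1.25 and 4.7 CPM in the LCS libraries. The log2 fold change of Nramp5 (Et_5A_041086) was 4.63 ± 0.37 (SE, adjusted p = 5.51e-09). Unlike YSL2, YSL16, VIT1 and VIT5, it was highest in S3 and S4. Nramp4 was higher in LCR with a log2 fold change of 1.5, and Nramp3 and Nramp2 were lower in LCR with -1.66 and -1.33. Nramp1 varied among the roots, with 3.11 to 15.3 CPM in LCR and 2.55 to 6.33 CPM in LCS, and was not called (adjusted p = 0.557).

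Oligopeptide transporters (OPT) carry small peptides, and some carry metals. The share called was 25%, against 42.7% of all genes tested. Of the 4 named, OPT1 (Et_8A_058302) was called, and it had 11.5, 15.6, 9.43 and 15.9 CPM in the LCR libraries, against 0.862, 0.464, 0.208 and 2.4 CPM in the LCS libraries. The log2 fold change was 3.69 ± 0.52 (SE, adjusted p = 1.06e-05). OPT3 (Et_4A_033828), which in Arabidopsis moves iron in the phloem, had 99.9, 78.3, 29.1 and 50.3 CPM in the LCR libraries, against 78.1, 96.9, 84.7 and 82.1 CPM in the LCS libraries. It did not tell the tissues apart, with a log2 fold change of -0.41 ± 0.48 (adjusted p = 0.522).

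Glutamate receptor-like channels split by gene. Of 10 genes, 2 were higher in LCR, 3 were lower in LCR and 5 were not called, which is 50% called and near the share of all genes tested (42.7%) and of those at 1 CPM or more (52.8%). Their median log2 fold change was -0.24, and the libraries did not overlap in 5 genes, against 40.8% of all genes. GLR3.1 (Et_7A_052266) had 1.13, 0.876, 1.79 and 0.942 CPM in the LCR libraries, against 137, 96.3, 194 and 49.6 CPM in the LCS libraries. This was the largest difference among the named genes, with a log2 fold change of -6.62 ± 0.48 (SE, adjusted p = 1.40e-09). In Arabidopsis, channels of the GLR3 group carry calcium signals from wounded leaves to other leaves. The other genes named GLR3.1 did not follow it, as GLR3.1-1 and GLR3.1-2 had log2 fold changes of 0.21 and 0.14 and were not called. GLR3.4-1 (Et_2A_016906) was lower in LCR, with 11 to 19.2 CPM in LCR and 33 to 71 CPM in LCS. On the log2 scale the fold change was -1.79 ± 0.24.

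The GLR2 group held both directions. GLR2.8 (Et_2A_018316) had 40.7, 29, 20.1 and 36.2 CPM in the LCR libraries, against 0.575, 3.94, 2.8 and 2.3 CPM in the LCS libraries. This gave a log2 fold change of 3.72 ± 0.47 (SE, adjusted p = 2.67e-06). GLR2.9 (Et_2A_018314), a further member, had 7.64, 10.2, 9.66 and 8.57 CPM in the LCR libraries, against 1.82, 2.2, 1.76 and 1.82 CPM in the LCS libraries, a log2 fold change of 2.24 ± 0.23. Both were root transcripts without overlap. GLR2.4 (Et_2A_016261) had 1.13, 0.876, 0.935 and 0.471 CPM in the LCR libraries, against 12, 7.19, 11.3 and 4.89 CPM in the LCS libraries, a log2 fold change of -3.38 ± 0.37. GLR2.7 (Et_1A_006195) overlapped between the tissues, with 19.4 to 33 CPM in LCR and 22.6 to 73.8 CPM in LCS, and was not called (log2 fold change -0.74, adjusted p = 0.148).

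Cyclic nucleotide-gated channels were shoot transcripts wherever the difference was large. Of 11 genes, 1 was higher in LCR, 6 were lower in LCR and 4 were not called, which is 63.6% called, against 42.7% of all genes tested and 52.8% of those at 1 CPM or more. Their median log2 fold change was -0.55, against -0.03 over all genes. In Arabidopsis, CNGC2 and CNGC4 act in calcium influx during immunity. The genes named CNGC4, CNGC4-1 and CNGC4-2 had few reads in roots. CNGC4 (Et_3B_029538) had 0.283, 0.263, 0 and 0.283 CPM in the LCR libraries, against 9, 15.2, 10.9 and 15.4 CPM in the LCS libraries, a log2 fold change of -5.96 ± 0.46 (SE, adjusted p = 3.53e-09). CNGC4-1 (Et_4B_037294) had 0.566, 0.175, 0.234 and 0.188 CPM in the LCR libraries, against 12.1, 16.1, 15.3 and 14 CPM in the LCS libraries, a log2 fold change of -5.7 ± 0.30. CNGC4-2 (Et_9B_064738) had 0.566, 0.263, 0 and 0.377 CPM in the LCR libraries, against 8.14, 11.4, 11.2 and 12.3 CPM in the LCS libraries, a log2 fold change of -5.27 ± 0.45. In reads, CNGC4 had 2, 3, 0 and 3 in the LCR libraries, so that its level in roots rests on few reads.

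CNGC2 (Et_4B_038004) followed the CNGC4 genes at a smaller size, with 1.27 to 2.73 CPM in LCR and 12.1 to 22.1 CPM in LCS and a log2 fold change of -3.2 ± 0.32. CNGC20 (Et_1A_006672) was lower in LCR with -1.43 ± 0.27 on the log2 scale (adjusted p = 0.000289), having 1.71 to 2.55 CPM in LCR and 4.77 to 6.14 CPM in LCS. CNGC1 was lower in LCR with -0.55 (adjusted p = 0.0121). The CNGC higher in LCR was CNGC17-20 (Et_2A_017586), one of 2 under upper-quartile scaling, which had 20.5, 19.5, 25.3 and 25.4 CPM in the LCR libraries, against 14.5, 14.8, 14.2 and 13.7 CPM in the LCS libraries. Its difference was small but without overlap, with a log2 fold change of 0.67 ± 0.16 (adjusted p = 0.00223). CNGC17 (Et_1A_006188) had 31.3, 30.5, 34.3 and 31.4 CPM in the LCR libraries, against 38.5, 25.4, 40.3 and 26.6 CPM in the LCS libraries, and a log2 fold change of -0.04 ± 0.17 (adjusted p = 0.889) gave it no direction.

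**Figure D4:**
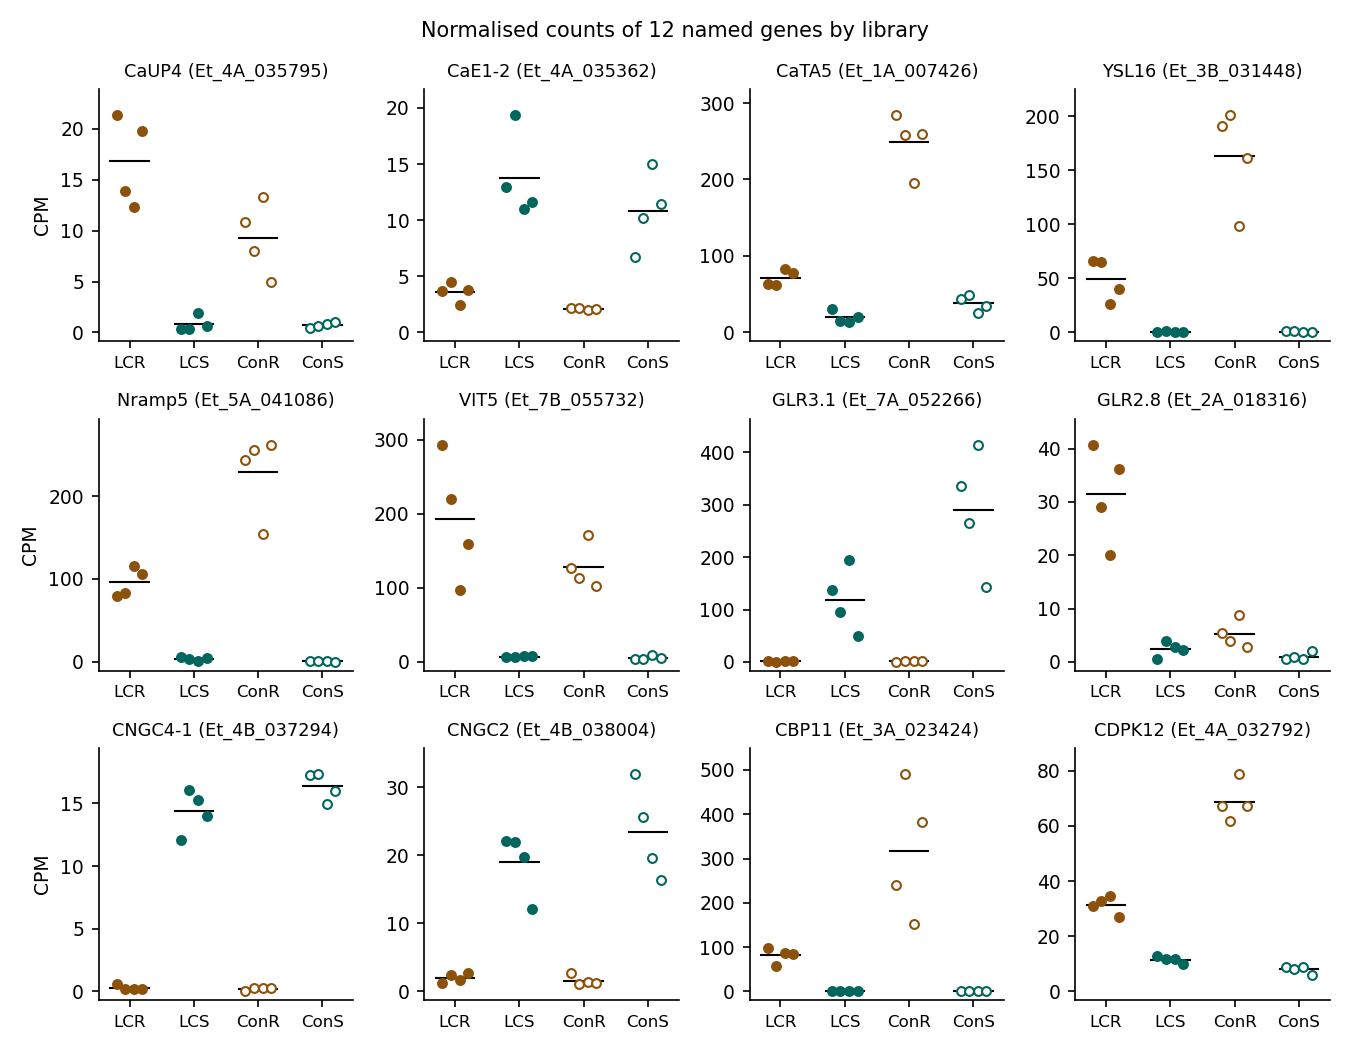
Normalised counts (vertical axis, CPM) of 12 named genes in the single libraries of LCR, LCS, ConR and ConS, where the line is the mean of 4 libraries. Within each supply the libraries of root and shoot do not overlap in any of the 12 panels, as for GLR3.1 with 0.876 to 1.79 CPM in LCR and 49.6 to 194 CPM in LCS.

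Calcium signalling genes had the highest share called of the 5 lists, which was not tested against the others. Of 35 genes, 19 were higher in LCR, 13 were lower in LCR and 3 were not called, which is 91.4% called, against 42.7% of all genes tested. The libraries did not overlap in 30 of the 35. Their median log2 fold change was 0.57 and their median absolute log2 fold change was 1.14, against 0.87 over all genes, so that the difference was frequent but for most members modest. Of the 32 members called, 7 differed at least 4-fold, 6 higher and 1 lower in LCR. Of all 24218 genes called, 5274 were higher and 7305 lower at that size. Calcineurin B (Et_8B_060076), named after a calcium sensor that in animals and yeast serves a phosphatase, was higher in LCR with a log2 fold change of 0.68 (adjusted p = 0.0015).

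Calcium-dependent protein kinases, which join a kinase to its own calcium sensor in one protein, were mostly root transcripts, with 10 of 14 higher in LCR and 3 lower in LCR. Over all genes tested, 20.0% were higher in LCR and 22.7% lower. The largest differences were those of CDPK2 (Et_9B_064669), which had 7.64, 10.5, 8.26 and 11 CPM in the LCR libraries, against 1.34, 1.51, 1.14 and 1.05 CPM in the LCS libraries. Its log2 fold change was 2.89 ± 0.32 (SE, adjusted p = 3.95e-07). CDPK1 (Et_9A_062108), on the matching chromosome of the other subgenome, had a log2 fold change of 2.64 ± 0.41 and 8.1 to 10.5 CPM in LCR and 0.83 to 2.2 CPM in LCS. CDPK10 (Et_10B_003165) had 69.7, 51.9, 60.6 and 58.9 CPM in the LCR libraries, against 12.5, 10.8, 11.6 and 15 CPM in the LCS libraries, a log2 fold change of 2.27 ± 0.18. These 3 kinases were without overlap. CDPK9 was similar to CDPK10, with a log2 fold change of 2.13, and CDPK3, CDPK6, CDPK7 and CDPK8 were higher in LCR by 1.28, 1.25, 1.14 and 1.05 on the log2 scale. CDPK14 (Et_5B_045743) had 85.6, 93.3, 102 and 91.4 CPM in the LCR libraries, against 87.6, 64.1, 72.9 and 73.7 CPM in the LCS libraries, and it was not called (log2 fold change 0.32 ± 0.14, adjusted p = 0.0763). It was called higher in LCR in 6 of 19 alternatives, which were DESeq2, DESeq2 size factors, limma-voom, upper-quartile scaling and both stricter filters on low counts, with adjusted p-values of 0.00203 to 0.0451.

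Calcium-binding proteins (CBP) were divided, with 6 of 17 higher in LCR, 9 lower in LCR and 2 not called. This is 88.2% called, against 42.7% of all genes tested. CBP11 (Et_3A_023424) had 98.7, 58.3, 87.4 and 84.2 CPM in the LCR libraries, against 1.72, 1.28, 1.35 and 1.53 CPM in the LCS libraries. CBP12 (Et_3B_027891), on the matching chromosome of the other subgenome, had 34.1, 23, 29.5 and 23.3 CPM in the LCR libraries, against 0.575, 0.58, 0.415 and 0.671 CPM in the LCS libraries. Their log2 fold changes were close, with 5.79 ± 0.38 for CBP11 and 5.58 ± 0.41 for CBP12. CBP12 was under 1 CPM in every LCS library, so that its level in shoots rests on few reads. The remaining CBP genes higher in LCR had log2 fold changes of 0.57 (CBP4) to 1.13 (CBP15). CBP6 (Et_9B_066197) was the largest fall among the signalling genes and had 9.9, 2.72, 6.47 and 4.71 CPM in the LCR libraries, against 20.3, 52.7, 31.8 and 21.4 CPM in the LCS libraries. The log2 fold change was -2.43 ± 0.47 (SE, adjusted p = 0.000319). CBP2, CBP7, CBP16 and CBP1 were lower in LCR, with log2 fold changes of -1.89, -1.86, -1.6 and -1.43. The other CBP genes lower in LCR lay between -1.29 (CBP8) and -0.91 (CBP9).

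The tissue difference at low calcium mostly had the direction of that in control plants. In control plants, 29739 genes (52.4%) differed between ConR and ConS, and 20014 genes were called at both supplies in the same direction, which is 82.6% of the calls at low calcium and 67.3% of those in control plants. In opposite directions 264 genes were called. The median absolute log2 fold change over all genes tested was 0.87 at low calcium and 1.11 in control plants. Over the 38836 genes at a mean of 1 CPM or more, the log2 fold changes at both supplies had a correlation of 0.889, given as a description across genes. At low calcium alone, 3940 genes were called, and in control plants alone, 9461.

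Whether the tissue difference itself differed between the supplies was tested gene by gene as an interaction of tissue and calcium. It was called for 3351 genes, 5.91% of those tested, of which 2948 had a more negative and 403 a more positive log2 fold change of root over shoot at low calcium. In 2667 of them (79.6%) the tissue difference was smaller in size at low calcium. Of the genes called at low calcium, 2044 (8.44%) had such an interaction. Among the 3940 genes called only at low calcium, the interaction was called for 467, so that for most of them a difference between the supplies was not shown. The number of interaction calls was 5127 without LCS S7 and between 2417 (without LCS S8) and 3674 (without ConS S16) without any other library. With libraries thinned to the smallest total it was 2303.

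Of the named genes, 68 were called at both supplies in the same direction. Another 4 were called only at low calcium, namely CaTA4-1, CaTA5-2, CaE1-3 and CBP13, and 16 only in control plants. None of these 4 had an interaction, the adjusted p being 0.195, 0.393, 0.645 and 0.873. An interaction was called for 14 named genes (12.8%), 9 of them signalling genes, 3 ATPases and 2 metal transporters. It was called for 5.91% of all genes tested and for 3221 of the 41296 genes at 1 CPM or more in LCR or LCS. In all 14 the tissue difference was smaller at low calcium. Its size was also smaller for 35516 of the 56746 genes tested and for 2667 of the 3351 genes with an interaction.

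The metal transporter Nramp5 was higher in roots at both supplies and less so at low calcium. In control plants it had 243, 255, 154 and 262 CPM in the ConR libraries, against 1.76, 1.36, 1.55 and 0.532 CPM in the ConS libraries. On the log2 scale the fold change was 4.63 at low calcium and 7.46 in control plants, a difference of -2.83 ± 0.50 (SE, adjusted p = 0.00236). OPT4 (Et_1B_013097) had 48.2, 57.6, 45.5 and 59.3 CPM in the LCR libraries, against 32.2, 44.9, 24.2 and 59.5 CPM in the LCS libraries. In control plants it had 20.7, 17.1, 42.8 and 10.5 CPM in the ConR libraries, against 3.43, 6.63, 1.55 and 4.33 CPM in the ConS libraries. The tissues overlapped in OPT4 at low calcium (log2 fold change 0.39, adjusted p = 0.434), whereas in control plants its log2 fold change was 2.5, and the difference of -2.11 ± 0.55 had an adjusted p of 0.029. The call was lost without LCR S1 or S3, LCS S8, ConR S11 or ConS S13, with adjusted p-values up to 0.0689.

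The ATPases CaTA9 and CaTA9-1 were shoot transcripts in control plants and not at low calcium. CaTA9 (Et_10A_001147) had a log2 fold change of 0.46 at low calcium (adjusted p = 0.0749) and -0.77 in control plants. The difference was 1.24 ± 0.29 (SE, adjusted p = 0.0139). At low calcium CaTA9 had 42.7, 51.9, 60.6 and 51.2 CPM in the LCR libraries, against 46.7, 27, 49.3 and 26.6 CPM in the LCS libraries. In control plants it had 64.3, 63.9, 65.6 and 66.6 CPM in the ConR libraries, against 120.4, 102, 132 and 90.9 CPM in the ConS libraries. CaTA9-1 (Et_6A_046490) had -0.26 at low calcium and -1.6 in control plants, a difference of 1.34 ± 0.25 (adjusted p = 0.00363), and 11 to 13.1 CPM in LCR and 9.59 to 18.4 CPM in LCS. Both thus overlapped between the low calcium tissues. Without LCS S8, CaTA9-1 was called lower in LCR (log2 fold change -0.42, adjusted p = 0.0431), with the other alternatives leaving it uncalled. CaTA9 was called higher in LCR in 5 of 19 alternatives, with adjusted p-values of 0.0396 with DESeq2, 0.0436 with limma-voom, 0.0488 with the filterByExpr filter of edgeR on low counts, 0.0152 under upper-quartile scaling and 0.0227 without LCS S7 (log2 fold change 0.63). CaTA5-1 (Et_8A_057406) had -0.33 at low calcium and -1.02 in control plants, and its interaction (adjusted p = 0.0432) was lost in 12 of 16 fits that left out a library. At low calcium it had 14.7 to 18 CPM in LCR and 17.9 to 24.7 CPM in LCS. CaTA5-1 was called lower in LCR without LCS S8 (-0.39, adjusted p = 0.0372) and with libraries thinned to the smallest total (-0.41, adjusted p = 0.0397).

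Apart from CDPK11, the kinases with an interaction came in pairs from matching chromosomes of the A and B subgenomes. CDPK12 (Et_4A_032792) had 30.8, 32.9, 34.6 and 26.8 CPM in the LCR libraries, against 12.8, 11.7, 11.6 and 9.78 CPM in the LCS libraries. In control plants it had 67.1, 61.8, 78.7 and 67.3 CPM in the ConR libraries, against 8.71, 8.08, 8.98 and 6.08 CPM in the ConS libraries. CDPK12 and CDPK13 (Et_4B_036955) were higher in roots at both supplies, with log2 fold changes of 1.45 and 1.22 at low calcium and 3.11 and 2.7 in control plants. CDPK13 had 34.3 to 41.9 CPM in LCR and 11.6 to 21.3 CPM in LCS. The interactions were -1.66 ± 0.22 (adjusted p = 0.000274) and -1.48 ± 0.24 (adjusted p = 0.00152). CDPK4 (Et_7A_052314) and CDPK5 (Et_7B_054972) were higher in shoots at both supplies. CDPK4 had 4.75 to 8.21 CPM in LCR and 9.3 to 20.8 CPM in LCS, and CDPK5 had 4.33 to 6.08 CPM in LCR and 6.96 to 13.1 CPM in LCS. Their log2 fold changes were -1.37 and -0.98 at low calcium and -3.0 and -2.64 in control plants, with interactions of 1.64 ± 0.39 (adjusted p = 0.0172) and 1.66 ± 0.34 (adjusted p = 0.00607). CDPK11 (Et_1A_008319) was alike in direction, with log2 fold changes of -1.03 at low calcium and -2.44 in control plants. It had 13.8 to 18.3 CPM in LCR and 22.3 to 40.8 CPM in LCS, and its interaction (adjusted p = 0.0354) was lost in 10 of 16 fits that left out a library.

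CBP11 and CBP12 were root transcripts at both supplies, with log2 fold changes of 5.79 and 5.58 at low calcium and 8.14 and 8.16 in control plants. The interactions were -2.36 ± 0.51 (adjusted p = 0.0092) for CBP11 and -2.58 ± 0.66 (adjusted p = 0.026) for CBP12, and the second was lost without LCS S5 (adjusted p = 0.0518) or LCS S8 (adjusted p = 0.0781). The shoot level of CBP12 was low, at under 1 CPM in every LCS library. The calcium/calmodulin-dependent kinases CCDSTK2 (Et_5A_041770) and CCDSTK3 (Et_5B_044444) were higher in LCR by 0.56 and 0.76 on the log2 scale, against 1.22 and 1.74 in ConR over ConS. CCDSTK2 had 24.2, 24.5, 24 and 23 CPM in the LCR libraries, against 16.9, 16.2, 14.3 and 17.3 CPM in the LCS libraries. CCDSTK3 had 22.8 to 33.1 CPM in LCR and 13.8 to 21.8 CPM in LCS. For CCDSTK2 the interaction (adjusted p = 0.0432) was lost in 14 of 16 fits that left out a library, and that of CCDSTK3 (adjusted p = 0.0214) in 3. Across the 14 genes, 8 interactions were kept whichever library was left out.

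**Figure D5:**
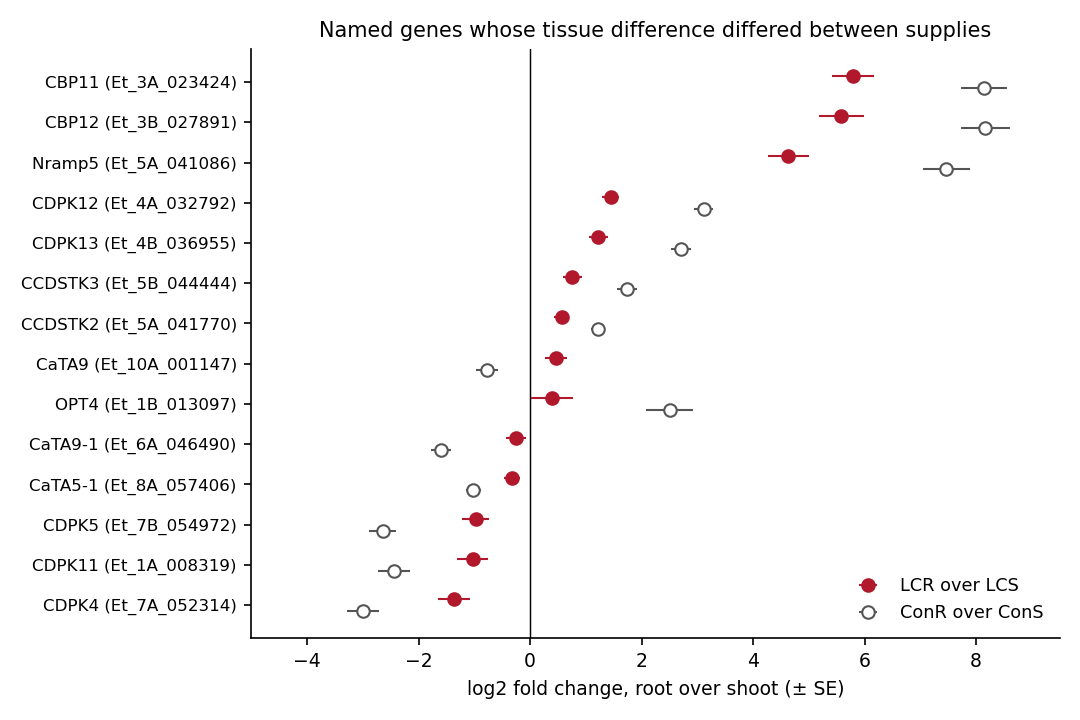
Log2 fold change of root over shoot (horizontal axis, with SE) for the 14 named genes with a called interaction, at low calcium (filled) and in control plants (open). The filled point lies nearer to 0 than the open one in all 14 genes, as for Nramp5 with 4.63 against 7.46.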

How the data were processed

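The authors trimmed 150 bp paired reads with sickle, aligned them to the tef genome with hisat2 and counted reads per gene with htseq-count (exons, union mode, reverse-strand setting, minimum alignment quality 10). The deposited values are whole-number counts for 68255 genes in 16 libraries, not normalized, of which 3959 genes were at 0 throughout. From these counts, genes above 0 in at least 4 libraries were tested in R 4.3.3 with edgeR 4.0.16 (TMM, quasi-likelihood test, a term per group over all 16 libraries, false discovery rate below 0.05). The interaction is the LCR vs LCS difference minus the ConR vs ConS difference. DESeq2 1.42.0, limma-voom (limma 3.58.1), other scalings, filters, depths and thresholds, and leaving out each library were alternatives. The steps were tested on simulated data. Floors of 3 reads cover counting error only. The SE of a log2 fold change comes from the quasi-likelihood test and also holds the estimated spread between libraries.

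Named genes are those that the study lists by identifier. Values by library, or their range in LCR and LCS, are given for the 6 called members with the largest difference per list (8 for calcium transporters) at 1 CPM or more, for members with an interaction and for the most abundant uncalled member of each list. Among unnamed genes, the 2 largest differences per direction without overlap and at 1 CPM or more in both tissues are given. The members and lists were chosen with earlier results of these data known. No genome or annotation was used here, so that no positions or sequences are given. The effect of the strand setting was not tested.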

Additional observations from a re-analysis of the deposited data

Results flagged for a closer look

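The tissue difference differed between the supplies, by the interaction test of edgeR at a false discovery rate below 0.05, in 3351 genes. Among the named genes the log2 difference, LCR vs LCS minus ConR vs ConS, was positive in 6. These were CaTA5-1 (0.69), CaTA9 (1.24), CaTA9-1 (1.34), CDPK4 (1.64), CDPK5 (1.66) and CDPK11 (1.42). It was negative in OPT4 (-2.11), Nramp5 (-2.83), CCDSTK2 (-0.65), CCDSTK3 (-0.99), CDPK12 (-1.66), CDPK13 (-1.48), CBP11 (-2.36) and CBP12 (-2.58).

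In 11 of 224 groups of 4 libraries, examined for the genes given with values by library or range and for 5 measures of whole libraries, 1 library stood apart from the other 3 past Dixon's 95% critical value, where chance gives about 1 in 20. In LCR, CNGC4 was at 0 CPM in S3 (0.263 to 0.283 CPM in the others), CNGC4-1 was at 0.566 CPM in S1 (0.175 to 0.234 CPM) and CDPK11 was at 18.3 CPM in S3 (13.8 to 14.1 CPM). In LCS, GLR2.9 was at 2.20 CPM in S6 (1.76 to 1.82 CPM). In ConR, S11 was high for OPT3 at 79.9 CPM (14.3 to 19.3 CPM) and for CDPK2 at 19.8 CPM (8.34 to 9.63 CPM). In ConS, S15 was high for CaUP6 at 31.2 CPM (9.42 to 11.9 CPM), VIT1 at 13 CPM (5.53 to 6.70 CPM) and CBP6 at 124 CPM (34.8 to 39.6 CPM). Also in ConS, CaCC1 was at 102 CPM in S14 (117 to 118 CPM) and GLR2.4 was at 11.4 CPM in S16 (13.5 to 13.8 CPM).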

How the results depend on the processing

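The count of genes between LCR and LCS stayed within 1.5 times of 24218 under every alternative run, from 18354 at an adjusted p below 0.01 to 25321 under upper-quartile scaling, and 39 of the 51 genes given with values by library or range kept their direction and side of the threshold throughout. CNGC17 changed sign, with log2 fold changes of 0.14 under upper-quartile scaling and 0.0056 with genes at 0 in 4 or more libraries left out, and -0.14 to 0.077 with 1 library left out. The interaction called 5155 genes with DESeq2 (1142 positive) and 1370 at an adjusted p below 0.01 (84 positive, 1286 negative), against 3351 (403 positive, 2948 negative), and 2417 to 5127 with 1 library left out (203 to 923 positive, without LCR S4 and without LCS S7). With libraries thinned to the smallest total it called 2303 (270 positive, 2033 negative). Named genes with an interaction numbered 9 with limma-voom and 6 at an adjusted p below 0.01, against 14, and 8 to 16 with 1 library left out. Genes found in LCR alone and in LCS alone numbered 503 and 377 when 3 reads over the absent tissue were allowed, 173 and 80 with libraries thinned to the smallest total, and 3 and 6 at 5 CPM, against 80 and 46. With 1 library left out they numbered 84 to 149 and 49 to 90. The first principal component held 73.1% of the variance with a prior count of 0.5 and 98.3% over the 500 genes of highest variance. The cause of these changes was not tested. No paired analysis was possible because the replicate numbers in the labels run from 1 to 16 and no number is shared between groups. Depth limits the genes under 1 CPM, of which 21.7% were called.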
